A study of Homo sapiens with 9 samples.

Results

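The DNA replication genes described here were 42 human genes whose products license, unwind, copy and join chromosomal DNA. They were taken as every probe set of the deposited value table whose platform gene symbol was one of the 42. All 42 genes had a probe set, out of 19775 genes named on the array, and 79 of the 54613 probe sets without controls belonged to them. Of these 79, 66 reached a log2 value of 6 on at least 3 of the 9 arrays and were tested, which left each of the 42 genes with at least 1 tested probe set. The other 13 had mean log2 values between 2.63 and 6.02. A further 4 probe sets that name PRIM2 together with PRIM2BP were left out.

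RNA from 3 human breast cancer cell lines was read on Affymetrix U133 Plus 2.0 arrays, with 3 arrays per line. B6TC is a GFP positive, estrogen-independent line established from a nude mouse tumor of B6 cells, which had been recovered from mouse bone marrow. Most of its cells resist both puromycin and G418, and its label calls it a fusion of the other lines. MDA-MB-231/GFP/Neo, written MDA-MB-231 below, is ER negative, G418 resistant and a single clone of GFP-transfected cells, and ZR-75-1/GFP/puro, written ZR-75-1, is ER positive and a pool of puromycin-resistant cells. All lines carried GFP and grew in the same medium, McCoy's 5A with fetal bovine serum, and no treatment is named. By the methods the RNA came from cells that were near confluent, and B6TC was selected with G418 when it was established. The labels call the arrays technical replicates and no source names separate cultures, so the p-values measure only the spread between technical replicates. Differences between lines and differences between cultures therefore cannot be told apart.

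Chromosomal DNA is copied once per cell cycle. In G1 phase the origin recognition complex, CDC6 and CDT1 load the MCM2-7 helicase onto DNA, a step called licensing, and in S phase CDC45 and the GINS complex turn the loaded helicase on. Polymerases, a sliding clamp with its loader, single-strand binding protein and the enzymes that join Okazaki fragments then copy both strands, and many of these genes are known targets of the E2F transcription factors at the G1 to S transition.

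The 9 arrays were alike in level, with 33.8% to 34.7% of the probe sets reaching a log2 value of 6. Over the 42 genes the median SD between arrays was 0.0466 on the B6TC arrays, 0.0546 on the MDA-MB-231 arrays and 0.0469 on the ZR-75-1 arrays, on the log2 scale. Markers fitted the labels of the parental lines. The summed linear level of 7 luminal markers was 925 to 2410 on the B6TC arrays, 813 to 894 on the MDA-MB-231 arrays and 38500 to 40800 on the ZR-75-1 arrays. That of 6 mesenchymal and basal markers was 25800 to 26600 on the B6TC arrays, 25400 to 26300 on the MDA-MB-231 arrays and 484 to 499 on the ZR-75-1 arrays. ESR1, the estrogen receptor gene, was read at its probe set with the highest mean over the 9 arrays. There it had 6.83 to 7.52 in ZR-75-1 and 6.56 to 6.72 in ER negative MDA-MB-231, so that set separated the lines little. Its other probe sets are not given here, so these values do not show how strongly ZR-75-1 expressed ESR1. The leukocyte markers PTPRC and CD3E were below 6 on every array. The third B6TC array stood apart in luminal markers, by a median log2 value of 1.34 above the other B6TC arrays. Over the replication genes its median deviation was -0.0038 and its largest was 0.147. Without that array 8 genes were higher and 21 lower against MDA-MB-231, and 14 and 26 against ZR-75-1, close to the counts over all arrays given below.

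Levels are given below as log2 expression at the tested probe set of a gene with the highest mean. A difference is the first-named line minus the second, fitted with limma over all 9 arrays, and a gene is called higher or lower where its p, adjusted after Benjamini and Hochberg over all tested probe sets, is at most 0.05. Both B6TC comparisons share the B6TC arrays. In bulk RNA, fewer replicating cells and less RNA per cell cannot be told apart.

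In B6TC the replication genes were lower more often than higher against either parental line. Against MDA-MB-231, 21 of 42 genes were lower, 9 were higher and 12 did not pass. Over all 10751 tested genes 28.5% were called lower and 36.5% higher in this comparison. The differences were small, between -0.94 and 0.42 with a median of -0.16 beside 0.04 over all genes. None of the 42 reached 2-fold, where 2.71% of all genes were at least 2-fold higher and 1.04% lower. Against ZR-75-1, 25 were lower, 14 were higher and 3 did not pass, where 41.6% of all genes were lower and 42.8% higher. Here the range was -2.44 to 0.89 and the median -0.36, beside -0.01 over all genes. At least 2-fold lower were 10 of the 42, where 14% of all genes were, and none was 2-fold higher, where 17.6% of all genes were. Between the parental lines 22 genes were lower in MDA-MB-231 than in ZR-75-1, 12 were higher and 8 did not pass, where 41.9% and 42.5% of all genes were lower and higher. At 2-fold there were 5 lower and 1 higher, PRIM2, where 15.6% and 16.3% of all genes were. Centering each array on its median lowers the B6TC minus ZR-75-1 difference of every gene by 0.10. With this change 8 of the replication genes were higher and 26 lower against ZR-75-1. The shares over all genes were not counted after centering, so these counts have no background beside them.

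**Figure D1:**
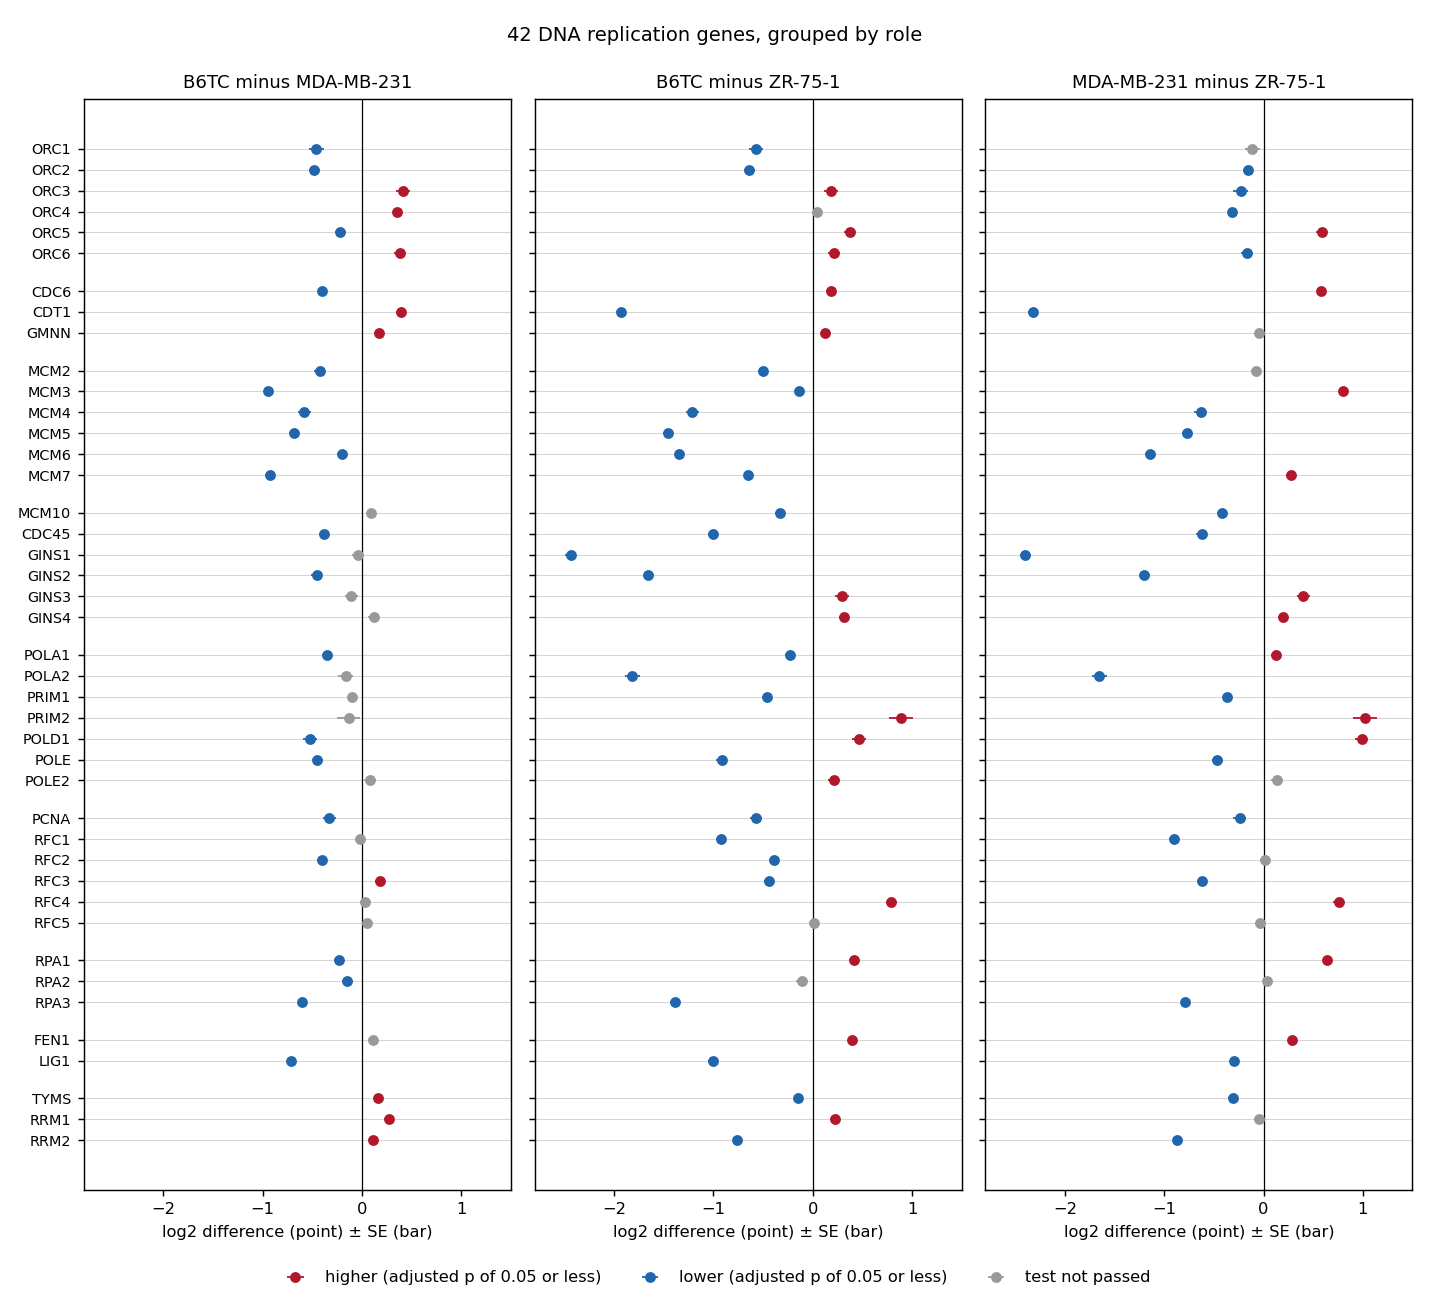
The log2 differences (points, horizontal axes) of the 42 genes, grouped by role from the origin recognition complex at the top to deoxynucleotide synthesis at the bottom, for B6TC minus MDA-MB-231, B6TC minus ZR-75-1 and MDA-MB-231 minus ZR-75-1. Bars are the SE of the fit, red points passed the test as higher and blue ones as lower, and the 6 MCM2-7 genes lie left of 0 in both B6TC panels.

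Measures of RNA and labeling also differed between the lines. For ACTB the 3' signal lay above the 5' signal by 0.67 on the B6TC arrays, 0.32 on the MDA-MB-231 arrays and 0.73 on the ZR-75-1 arrays, and for GAPDH by 0.29, 0.07 and 0.21 in the same order of lines. Poly-A spike-in controls, over 24 probe sets, averaged 9.08 on the B6TC arrays, 5.68 on the MDA-MB-231 arrays and 7.54 on the ZR-75-1 arrays. The part of these measures in the results was not tested.

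All 6 genes of the MCM2-7 ring, the motor of the replicative helicase, were lower in B6TC cells than in MDA-MB-231 and lower than in ZR-75-1. MCM3 had 10.47, 10.47 and 10.50 on the B6TC arrays, against 11.46, 11.42 and 11.39 on the MDA-MB-231 arrays, with 10.64, 10.64 and 10.58 on the ZR-75-1 arrays. MCM7 had 9.89, 9.87 and 9.89 in B6TC, against 10.75, 10.86 and 10.82 in MDA-MB-231 and 10.59, 10.51 and 10.51 in ZR-75-1. For both genes every B6TC array lay below every array of either parental line, and at these probe sets MDA-MB-231 was the highest line. MCM3 was 1.92-fold lower in B6TC cells than in MDA-MB-231 (log2 difference -0.94, SE 0.042, limma adjusted p = 1.11e-07) but only 1.10-fold lower than in ZR-75-1 (-0.14, limma adjusted p = 0.0101). MCM7 was 1.90-fold lower than in MDA-MB-231 (-0.93, SE 0.046, limma adjusted p = 2.05e-07) and 1.57-fold lower than in ZR-75-1 (-0.65, limma adjusted p = 2.69e-07). Without a filter on low values the MCM3 difference from ZR-75-1 did not pass (limma adjusted p = 0.0572).

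MCM4, MCM5 and MCM6 showed the other order, with ZR-75-1 at the top. MCM5 had 9.16, 9.13 and 9.24 in B6TC, against 9.90, 9.85 and 9.83 in MDA-MB-231 and 10.68, 10.62 and 10.60 in ZR-75-1. MCM4 had 8.70, 8.93 and 8.94 in B6TC, against 9.39, 9.49 and 9.44 in MDA-MB-231 and 10.04, 10.07 and 10.09 in ZR-75-1. MCM6 had 10.09, 9.93 and 10.03 in B6TC, against 10.19, 10.23 and 10.23 in MDA-MB-231 and 11.38, 11.37 and 11.32 in ZR-75-1. The lines did not overlap for any of these genes. Against MDA-MB-231 the fitted differences were -0.68 for MCM5, -0.58 for MCM4 and -0.20 for MCM6, and against ZR-75-1 they were -1.46, -1.21 and -1.34, which are 2.75-fold, 2.32-fold and 2.53-fold lower. MCM2 averaged 10.16 ± 0.068 on the B6TC arrays, 10.58 ± 0.021 on the MDA-MB-231 arrays and 10.66 ± 0.068 on the ZR-75-1 arrays (SD, n = 3 each), and its parental arrays overlapped. Between the parental lines MCM3 and MCM7 were higher in MDA-MB-231, MCM4, MCM5 and MCM6 were lower, and MCM2 did not pass. The order of the parental lines for MCM7 held at its brighter probe set only, since at the other they overlapped (-0.02, limma adjusted p = 0.746), with B6TC below both (-0.53 and -0.55).

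Over all tested probe sets of these 6 genes, 10 of 11 were lower in B6TC cells than in MDA-MB-231 and 11 of 11 were lower than in ZR-75-1. The exception was 1 of the 4 probe sets of MCM4, at 0.06 against MDA-MB-231 (limma adjusted p = 0.588), while the others of that gene were between -0.22 and -1.21. Without the third B6TC array the 6 genes stayed lower in both comparisons, at -0.21 to -0.95 against MDA-MB-231 and -0.15 to -1.49 against ZR-75-1. After median centering the values were -0.24 to -0.98 and -0.24 to -1.56.

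**Figure D2:**
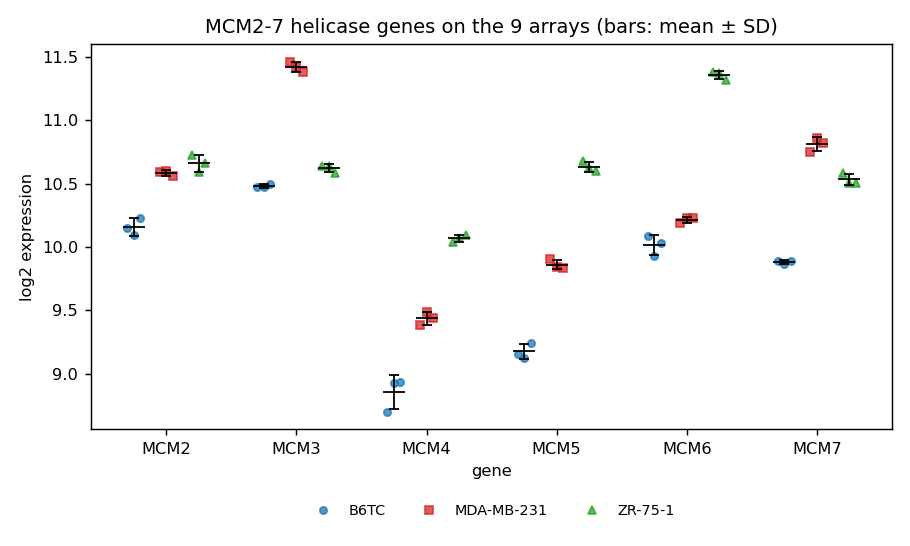
Log2 expression (vertical axis) of the 6 MCM2-7 genes on each array, with B6TC as circles, MDA-MB-231 as squares and ZR-75-1 as triangles, and lines for the mean ± SD of 3 arrays. B6TC lies lowest for every gene, with MCM3 averaging 10.48 on the B6TC arrays, 11.42 on the MDA-MB-231 arrays and 10.62 on the ZR-75-1 arrays.

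Start-site windows of MCM2, MCM3, MCM6 and MCM7 are shown because these genes moved in the same direction in B6TC and because MCM promoters are textbook E2F targets. The sequences are RefSeq's for GRCh38.p14, each from 200 bases before the annotated start to 30 bases after, written 5' to 3' on the gene's strand. Capitals mark any of 4 forms of the E2F site, TTTCCCGC, TTTGGCGC, TTTCGCGC and TTTGCCGC, on either strand, where matches may overlap. MCM2 is at chr3:127598211-127598440 (plus strand), MCM3 at chr6:52284713-52284942 (minus strand), MCM6 at chr2:135876414-135876643 (minus strand) and MCM7, in 1 of its 3 windows, at chr7:100101368-100101597 (minus strand).
MCM2: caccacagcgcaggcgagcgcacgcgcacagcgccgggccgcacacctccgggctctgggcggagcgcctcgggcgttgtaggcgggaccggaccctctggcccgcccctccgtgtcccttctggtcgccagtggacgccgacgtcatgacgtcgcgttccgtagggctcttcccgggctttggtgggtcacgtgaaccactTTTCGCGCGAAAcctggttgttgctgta
MCM3: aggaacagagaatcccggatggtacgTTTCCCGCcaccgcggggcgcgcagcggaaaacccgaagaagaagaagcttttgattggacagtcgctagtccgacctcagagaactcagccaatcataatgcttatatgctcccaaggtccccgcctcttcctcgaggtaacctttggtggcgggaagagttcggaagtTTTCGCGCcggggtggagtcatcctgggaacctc
MCM6: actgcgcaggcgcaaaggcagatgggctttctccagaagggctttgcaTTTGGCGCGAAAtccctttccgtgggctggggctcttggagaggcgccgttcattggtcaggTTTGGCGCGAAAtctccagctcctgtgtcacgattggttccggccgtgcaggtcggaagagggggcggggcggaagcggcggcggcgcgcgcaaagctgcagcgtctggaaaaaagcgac
MCM7: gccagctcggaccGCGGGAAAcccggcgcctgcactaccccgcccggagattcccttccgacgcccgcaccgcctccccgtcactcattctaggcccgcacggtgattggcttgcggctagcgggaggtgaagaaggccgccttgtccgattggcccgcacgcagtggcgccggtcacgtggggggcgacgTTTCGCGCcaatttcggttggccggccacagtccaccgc

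Each of the 4 windows held at least 2 matches. In MCM2 and MCM6 a match on one strand overlapped a match on the other, so that TTTCGCGCGAAA and TTTGGCGCGAAA each count as 2, and MCM6 held such a pair at 2 separate places. The MCM3 and MCM7 matches were apart from each other. A match describes these letters only and no factor binding was measured.

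The origin recognition complex marks the sites where replication starts, and its 6 subunit genes were split. Against MDA-MB-231, ORC3, ORC4 and ORC6 were higher in B6TC and ORC1, ORC2 and ORC5 were lower. ORC3 had 8.96, 9.03 and 8.94 in B6TC, against 8.71, 8.40 and 8.58 in MDA-MB-231 and 8.82, 8.78 and 8.78 in ZR-75-1. ORC6 had 8.91, 9.05 and 8.97 in B6TC, against 8.68, 8.48 and 8.62 in MDA-MB-231 and 8.79, 8.70 and 8.79 in ZR-75-1. B6TC was above both parental lines on every array for ORC3 and ORC6. ORC3 was 1.33-fold higher than in MDA-MB-231 (0.42, SE 0.071, limma adjusted p = 0.000537), the largest positive difference among the 42 genes in that comparison, and ORC6 was 1.30-fold higher (0.38, SE 0.062, limma adjusted p = 0.000362). The differences of ORC3 and ORC6 from ZR-75-1 were 0.18 and 0.21 and passed the test, though neither did after median centering (0.08 and 0.11).

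ORC4 had 9.53, 9.54 and 9.60 in B6TC, 9.14, 9.24 and 9.23 in MDA-MB-231 and 9.52, 9.52 and 9.51 in ZR-75-1. It was 1.28-fold higher in B6TC cells than in MDA-MB-231 (0.35, SE 0.045, limma adjusted p = 6.95e-05), and its difference from ZR-75-1 was 0.04 (limma adjusted p = 0.417). Its dimmer probe set gave another picture, with 7.84, 7.97 and 7.75 in B6TC, 7.95, 7.81 and 7.84 in MDA-MB-231 and 6.94, 6.96 and 6.96 in ZR-75-1. At that probe set B6TC overlapped MDA-MB-231 and both lay above ZR-75-1, so the parental difference was 0.92 there and -0.31 at the brighter one. ORC1 encodes an ATP-binding subunit whose level oscillates in the cell cycle. It was 1.37-fold lower in B6TC cells than in MDA-MB-231 (-0.46) and 1.48-fold lower than in ZR-75-1 (-0.57), and ORC2 was 1.40-fold and 1.56-fold lower. ORC5 lay between the parental lines, with means of 8.08 on the B6TC arrays, 8.30 on the MDA-MB-231 arrays and 7.71 on the ZR-75-1 arrays.

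CDT1 and CDC6 load the helicase, and geminin, encoded by GMNN, blocks CDT1 after origins have fired. CDT1 was at 8.44, 8.44 and 8.37 in B6TC, 8.08, 7.94 and 8.04 in MDA-MB-231 and 10.32, 10.33 and 10.38 in ZR-75-1. At this probe set B6TC lay a little above MDA-MB-231 while ZR-75-1 stood far higher. The B6TC level was 3.80-fold lower than in ZR-75-1 (-1.93, SE 0.050, limma adjusted p = 1.32e-10) and 1.32-fold higher than in MDA-MB-231 (0.40, SE 0.050, limma adjusted p = 6.95e-05), and MDA-MB-231 was 5.01-fold lower than ZR-75-1 (-2.33). The other CDT1 probe set had 7.04, 7.11 and 7.13 in B6TC, 8.07, 7.96 and 7.90 in MDA-MB-231 and 8.94, 8.85 and 8.91 in ZR-75-1. The difference from ZR-75-1 was alike there (-1.80), but B6TC was below MDA-MB-231 (-0.88, limma adjusted p = 6.94e-07), so the direction against MDA-MB-231 depends on the probe set. CDC6 was 1.32-fold lower in B6TC cells than in MDA-MB-231 (-0.40, limma adjusted p = 3.94e-05), and its other probe set gave -0.45. Against ZR-75-1 it was called higher at 0.18, but this call was lost after median centering (0.08, limma adjusted p = 0.121) and with the mean of its probe sets (0.02, limma adjusted p = 0.553), and the other probe set gave -0.14 (limma adjusted p = 0.103). GMNN differed little, with B6TC 0.17 above MDA-MB-231 and 0.13 above ZR-75-1, and the difference from ZR-75-1 was 0.02 after centering (limma adjusted p = 0.62).

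The window of CDT1, at chr16:88803589-88803818 (plus strand, GRCh38.p14, RefSeq), is shown because this gene had the second largest deficit against ZR-75-1. Its single match lies shortly before the start, with the same marking as above.
CDT1: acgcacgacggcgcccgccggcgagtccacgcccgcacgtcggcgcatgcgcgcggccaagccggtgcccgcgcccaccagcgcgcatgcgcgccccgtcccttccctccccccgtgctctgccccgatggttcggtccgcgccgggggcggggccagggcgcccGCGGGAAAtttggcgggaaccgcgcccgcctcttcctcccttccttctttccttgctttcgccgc

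CDC45 and the 4 GINS proteins join the MCM ring to form the active helicase, and MCM10 helps to start it. The 4 GINS subunits form a complex with 1 copy of each, yet their RNAs differed in opposite directions between the lines. GINS1 had 8.07, 7.96 and 8.16 in B6TC, 8.13, 8.08 and 8.11 in MDA-MB-231 and 10.50, 10.49 and 10.52 in ZR-75-1. B6TC overlapped MDA-MB-231 (-0.04, limma adjusted p = 0.527) and lay 5.42-fold below ZR-75-1 (-2.44, SE 0.054, limma adjusted p = 4.12e-11), the largest difference of any of the 42 genes from that line. GINS2 had 8.88, 9.0 and 8.92 in B6TC, 9.48, 9.34 and 9.35 in MDA-MB-231 and 10.61, 10.58 and 10.57 in ZR-75-1. The lines were separate for GINS2, with B6TC 1.37-fold below MDA-MB-231 (-0.46, limma adjusted p = 3.80e-05) and 3.15-fold below ZR-75-1 (-1.65, SE 0.053, limma adjusted p = 5.33e-10). A dimmer GINS2 probe set gave -0.29 and -0.23. GINS3 and GINS4 instead exceeded ZR-75-1, by 0.30 (limma adjusted p = 0.00181) and 0.32 (limma adjusted p = 0.000278), and neither differed from MDA-MB-231 past the threshold.

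The GINS1 window at chr20:25407473-25407702 (plus strand) and the GINS3 window at chr16:58392271-58392500 (plus strand) are set side by side because these genes of one complex differed from ZR-75-1 in opposite directions. Both are RefSeq's for GRCh38.p14 with capitals as above.
GINS1: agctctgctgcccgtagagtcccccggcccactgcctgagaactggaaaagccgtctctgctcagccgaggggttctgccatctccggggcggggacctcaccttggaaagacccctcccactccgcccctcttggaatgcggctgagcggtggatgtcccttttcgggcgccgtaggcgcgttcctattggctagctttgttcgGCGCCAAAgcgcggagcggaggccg
GINS3: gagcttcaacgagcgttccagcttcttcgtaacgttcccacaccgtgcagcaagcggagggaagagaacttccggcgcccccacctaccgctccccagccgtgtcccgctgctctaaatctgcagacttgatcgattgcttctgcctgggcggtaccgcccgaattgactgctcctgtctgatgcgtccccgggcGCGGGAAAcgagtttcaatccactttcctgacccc

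Both windows held 1 match, close to the start and on the minus strand. CDC45 had 7.68, 7.66 and 7.66 in B6TC, 8.04, 8.05 and 8.05 in MDA-MB-231 and 8.69, 8.76 and 8.56 in ZR-75-1. B6TC was the lowest line without overlap, by 1.30-fold against MDA-MB-231 (-0.38, limma adjusted p = 0.000124) and 2.00-fold against ZR-75-1 (-1.003, limma adjusted p = 2.21e-08). MCM10 had 9.20, 9.21 and 9.12 in B6TC, 9.15, 9.04 and 9.07 in MDA-MB-231 and 9.51, 9.53 and 9.48 in ZR-75-1. It overlapped MDA-MB-231 and was 1.26-fold below ZR-75-1 (-0.33, limma adjusted p = 6.74e-05). Of its dimmer probe sets, 1 was 0.15 above ZR-75-1 (limma adjusted p = 0.0128) and the other 0.01 (limma adjusted p = 0.874). That second set was called higher than in MDA-MB-231 (0.36, limma adjusted p = 0.00046), as was the mean of the MCM10 probe sets (0.18, limma adjusted p = 0.0034), while the first gave 0.10 (limma adjusted p = 0.0746).

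Polymerase alpha with primase starts each new strand, and polymerases delta and epsilon extend it. POLA2, the regulatory subunit of polymerase alpha, had 7.78, 8.08 and 7.93 in B6TC, 8.02, 8.06 and 8.20 in MDA-MB-231 and 9.71, 9.79 and 9.74 in ZR-75-1. As for GINS1, B6TC overlapped MDA-MB-231 (-0.16, limma adjusted p = 0.0862) and lay well below ZR-75-1, here by 3.52-fold (-1.82, SE 0.077, limma adjusted p = 4.36e-09). POLA1, the catalytic subunit, differed much less from ZR-75-1 (-0.23), and B6TC was also below MDA-MB-231 (-0.35). Of the primase subunits, PRIM1 was lower in B6TC cells than in ZR-75-1 (-0.46, limma adjusted p = 3.70e-06) and PRIM2 was higher. PRIM2 had 7.05, 6.91 and 7.09 in B6TC, 7.46, 6.97 and 7.02 in MDA-MB-231 and 6.09, 6.03 and 6.27 in ZR-75-1. All ZR-75-1 arrays were below the rest, and B6TC was 1.85-fold above them (0.89, SE 0.12, limma adjusted p = 5.58e-05), the largest positive difference of the 42 genes. The first MDA-MB-231 array was high, with an SD of 0.272 in that line, and the level in ZR-75-1 was near the filter of 6.

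POLD1, the catalytic subunit of polymerase delta, had 8.75, 8.76 and 8.79 in B6TC, 9.31, 9.41 and 9.15 in MDA-MB-231 and 8.35, 8.26 and 8.29 in ZR-75-1. B6TC lay between the parental lines without overlap, 1.44-fold below MDA-MB-231 (-0.52, limma adjusted p = 6.53e-05) and 1.38-fold above ZR-75-1 (0.47, limma adjusted p = 6.49e-05). POLE, the catalytic subunit of polymerase epsilon, was lowest in B6TC, with differences of -0.45 against MDA-MB-231 and -0.91 against ZR-75-1. POLE2, its second subunit, differed from MDA-MB-231 by 0.09 (limma adjusted p = 0.232) and from ZR-75-1 by 0.22 (limma adjusted p = 0.00643), which did not pass after median centering (0.12, limma adjusted p = 0.0676).

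**Figure D3:**
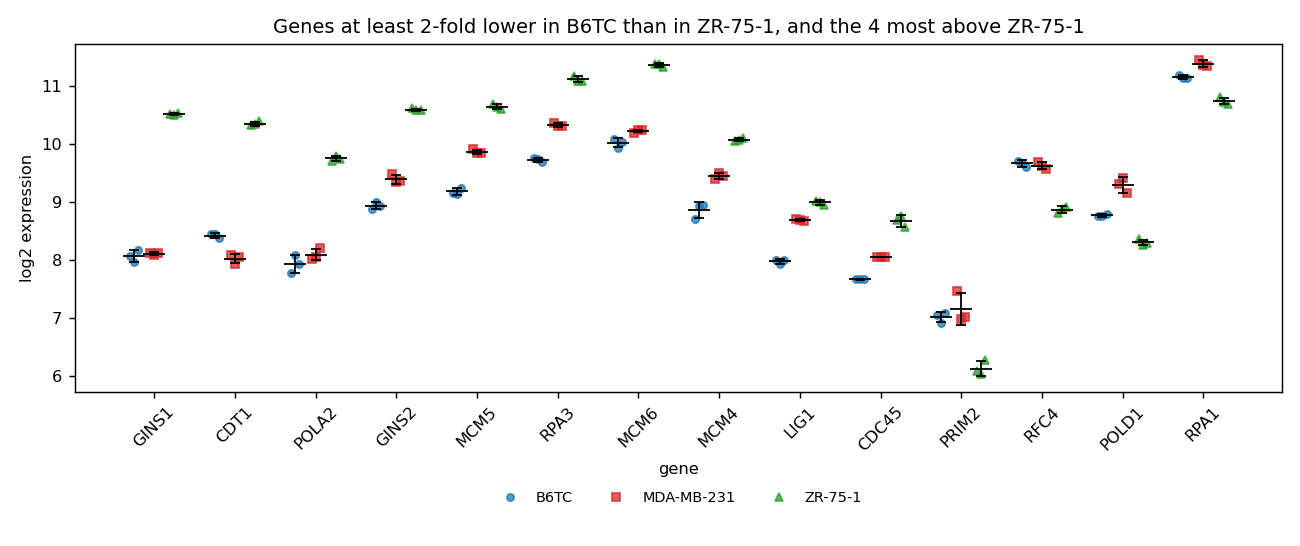
Log2 expression (vertical axis) of the 10 genes at least 2-fold lower in B6TC cells than in ZR-75-1 and of the 4 genes most above ZR-75-1, on each array, with B6TC as circles, MDA-MB-231 as squares and ZR-75-1 as triangles. Lines are the mean ± SD of 3 arrays, and for GINS1 the B6TC mean of 8.07 and the MDA-MB-231 mean of 8.11 lie far below the ZR-75-1 mean of 10.50.

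PCNA is the sliding clamp that holds polymerases on DNA, and the RFC complex loads it. PCNA had 10.89, 10.92 and 10.81 in B6TC, 11.28, 11.12 and 11.21 in MDA-MB-231 and 11.39, 11.39 and 11.55 in ZR-75-1. It was lowest in B6TC without overlap, 1.26-fold below MDA-MB-231 (-0.33, SE 0.063, limma adjusted p = 0.00110) and 1.48-fold below ZR-75-1 (-0.57, SE 0.063, limma adjusted p = 9.76e-06). Among the loader genes, RFC2 was lower in B6TC than in either line, at -0.41 against MDA-MB-231 and -0.39 against ZR-75-1. RFC1, the large subunit, overlapped MDA-MB-231 and was 1.89-fold below ZR-75-1 (-0.92, limma adjusted p = 2.29e-08). At its other tested probe set B6TC lay between the parental lines, 0.21 above MDA-MB-231 (limma adjusted p = 0.0168) and 1.18-fold below ZR-75-1 (-0.24).

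RFC4 had 9.71, 9.68 and 9.59 in B6TC, 9.69, 9.61 and 9.57 in MDA-MB-231 and 8.81, 8.88 and 8.92 in ZR-75-1. Arrays of the MDA-MB-231 and B6TC lines overlapped, and both lines exceeded ZR-75-1, B6TC by 1.73-fold (0.79, SE 0.053, limma adjusted p = 1.69e-07). RFC3 had 9.98, 9.96 and 9.93 in B6TC, 9.85, 9.73 and 9.74 in MDA-MB-231 and 10.36, 10.46 and 10.35 in ZR-75-1. At this probe set B6TC lay between the lines, at 0.18 against MDA-MB-231 and -0.44 against ZR-75-1, whereas the dimmer one, with 9.09, 9.26 and 9.19 in B6TC and 9.45, 9.42 and 9.44 in MDA-MB-231, gave -0.26 against MDA-MB-231. RFC5 had 9.36, 9.42 and 9.33 in B6TC, 9.38, 9.34 and 9.25 in MDA-MB-231 and 9.34, 9.40 and 9.32 in ZR-75-1. All lines overlapped there, but the dimmer RFC5 probe sets were called in opposite directions.

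RPA1, RPA2 and RPA3 encode the heterotrimer that coats single-stranded DNA. RPA1 had 11.18, 11.13 and 11.13 in B6TC, 11.44, 11.35 and 11.34 in MDA-MB-231 and 10.80, 10.71 and 10.69 in ZR-75-1. It was intermediate in B6TC, 1.17-fold below MDA-MB-231 (-0.23, limma adjusted p = 0.00232) and 1.33-fold above ZR-75-1 (0.42, limma adjusted p = 1.75e-05). The other RPA1 probe set also placed B6TC between them but nearer to ZR-75-1, 1.58-fold below MDA-MB-231 (-0.66, limma adjusted p = 1.19e-06) and 0.12 above ZR-75-1. RPA3 was lowest in B6TC, where it averaged 9.72, with 10.32 on the MDA-MB-231 arrays and 11.11 on the ZR-75-1 arrays, which is 1.52-fold and 2.62-fold lower. RPA2 passed the test against MDA-MB-231 (-0.15, limma adjusted p = 0.0358) although the arrays overlapped, and it did not pass without the first or the second B6TC array (limma adjusted p = 0.135 and 0.0974) or without the second or the third MDA-MB-231 array (0.0765 and 0.116).

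FEN1 trims the flaps of Okazaki fragments and LIG1 seals them. LIG1 had 8.005, 7.931 and 8.001 in B6TC, 8.711, 8.690 and 8.673 in MDA-MB-231 and 9.020, 8.995 and 8.948 in ZR-75-1. B6TC was the lowest line without overlap, 1.64-fold below MDA-MB-231 (-0.71, SE 0.043, limma adjusted p = 6.07e-07) and 2.01-fold below ZR-75-1 (-1.01, SE 0.043, limma adjusted p = 4.63e-09). FEN1 differed from MDA-MB-231 by 0.11 (limma adjusted p = 0.0554) and exceeded ZR-75-1 by 1.32-fold (0.40). At its other probe set B6TC lay below MDA-MB-231 (-0.51, limma adjusted p = 1.58e-05) but above ZR-75-1 (0.28).

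TYMS makes thymidylate, and RRM1 with RRM2 form ribonucleotide reductase, which supplies deoxynucleotides. All 3 were above MDA-MB-231 in B6TC at the brightest probe set, by 0.16, 0.27 and 0.11. TYMS had 12.26, 12.28 and 12.24 in B6TC, 12.14, 12.05 and 12.10 in MDA-MB-231 and 12.39, 12.37 and 12.45 in ZR-75-1. Its other probe set reversed the first of these orders, with 10.15, 10.24 and 10.11 in B6TC, 10.96, 11.02 and 10.96 in MDA-MB-231 and 10.49, 10.57 and 10.49 in ZR-75-1. There B6TC was below both lines, at -0.81 against MDA-MB-231 (limma adjusted p = 6.06e-07) and -0.35 against ZR-75-1. RRM1 had 10.89, 10.93 and 10.88 in B6TC, 10.60, 10.67 and 10.63 in MDA-MB-231 and 10.73, 10.59 and 10.72 in ZR-75-1. The second RRM1 probe set was at 9.55, 9.68 and 9.63 in B6TC, 10.09, 10.16 and 10.13 in MDA-MB-231 and 9.93, 9.84 and 9.84 in ZR-75-1. B6TC was thus above both parental lines at one RRM1 probe set (0.27 and 0.22) and below both at the other (-0.51 and -0.25), and the 0.22 did not pass after median centering (0.12, limma adjusted p = 0.057). RRM2 was lower than in ZR-75-1 at both of its probe sets (-0.76 and -0.41). Its small difference from MDA-MB-231 at the brighter set (0.11, limma adjusted p = 0.0402) did not pass with any 1 of the B6TC or MDA-MB-231 arrays left out. The other RRM2 probe set was also called higher than in MDA-MB-231 (0.15, limma adjusted p = 0.0122).

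Of the 20 genes with several tested probe sets, CDT1, RFC3, RFC5, RRM1 and TYMS disagreed in the sign of their called sets between B6TC and MDA-MB-231, MCM10, RFC5 and RRM1 between B6TC and ZR-75-1, and ORC4 and TYMS between the parental lines. How often the probe sets of other genes disagree in this way was not counted. Among the 20 genes RFC5 was the most divided. One of its dimmer probe sets had 8.25, 8.22 and 8.25 in B6TC, 9.28, 9.11 and 9.13 in MDA-MB-231 and 8.64, 8.71 and 8.64 in ZR-75-1, whereas the other had 8.75, 8.80 and 8.90 in B6TC, 8.11, 7.90 and 7.98 in MDA-MB-231 and 8.01, 7.99 and 7.88 in ZR-75-1. B6TC was the lowest line at the one (-0.94 against MDA-MB-231) and the highest at the other (0.82). Over the 24 tested probe sets that were not the brightest of their gene, 16 were lower in B6TC cells than in MDA-MB-231, 4 were higher and 4 did not pass. The share lower was 66.7%, beside 35.1% of 7886 such probe sets over all genes. Counted by probe set, 37 of 66 were lower in B6TC cells than in MDA-MB-231 and 13 higher, where 31.3% of all 21095 tested probe sets were lower and 33.9% higher, and 40 were lower than in ZR-75-1 and 20 higher, where 40.6% and 43% were. Between the parental lines 33 were lower in MDA-MB-231 and 21 higher, where 39.9% and 43.8% were.

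**Figure D4:**
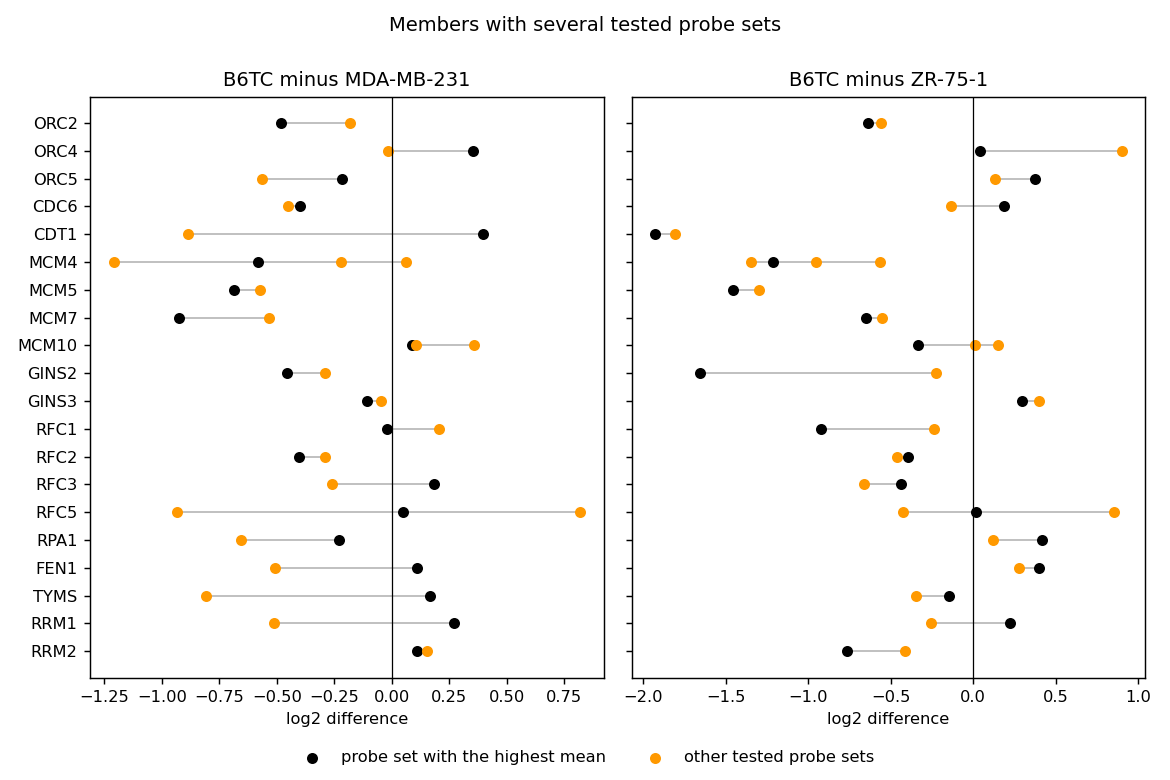
Log2 differences (horizontal axes) of B6TC minus MDA-MB-231 and B6TC minus ZR-75-1 for each tested probe set of the 20 genes with several, with the brightest set in black, the others in orange and a gray line joining the sets of a gene. RFC5 spans -0.94 to 0.82 against MDA-MB-231, while the sets of MCM5 and MCM7 lie close together below 0.

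The genes fell into different orders across the lines. For 16 of the 42 the means ran from ZR-75-1 at the top through MDA-MB-231 to B6TC, the order of 20% of all tested genes. For 5 it was MDA-MB-231, ZR-75-1, B6TC, the order of 7.57%. B6TC was the top line for 10 genes. MDA-MB-231 came next for 4 of these and ZR-75-1 for 6, the orders of 23.6% and 7.3% of all genes. B6TC was the middle line for 11, with MDA-MB-231 at the top for 6 and ZR-75-1 for 5, the orders of 18.8% and 22.7%. By distance between means, 28 genes (66.7%) were nearer to MDA-MB-231 than to ZR-75-1, beside 73.7% of all genes. For the 19 genes whose parental lines differed by at least 0.5 and passed the test, B6TC was placed on a scale with 0 at the MDA-MB-231 mean and 1 at the ZR-75-1 mean. All positions are those of the brightest probe sets. POLD1 was at 0.528 and CDC6 at 0.683, near the middle, and GINS1, RFC1 and RFC4 were at -0.017, -0.023 and -0.048, close to MDA-MB-231. At the other CDC6 probe set the B6TC mean was instead below both parental means, by -0.45 and -0.14 (limma adjusted p = 0.103 for the second). MCM4, MCM5, RPA3 and CDC45 lay outside the parental range, at -0.923, -0.885, -0.762 and -0.607, and MCM3 lay outside it on the other side at 1.175. For MCM4 a dimmer probe set placed the B6TC mean inside that range, 0.06 from MDA-MB-231 (limma adjusted p = 0.588) and -0.57 from ZR-75-1. Its remaining tested sets kept B6TC below both lines. The positions reuse the arrays of the comparisons and were not tested.

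RefSeq start-site windows, from 250 bases before the start to 50 after, were matched by symbol for 37 of the 42 genes. MCM4, MCM5, GINS4, RPA2 and RPA3 were not matched. At least 1 of the 4 E2F forms above occurred on either strand in 19 of the 37 (51.4%), beside 3.99% of 27305 genes and 3.31% of all 35116 windows. The shorter CCAAT motif, on either strand, occurred in 22 of 37 (59.5%), beside 39.7% of genes. Of the 19 genes with an E2F form, 10 were lower in B6TC cells than in MDA-MB-231, 5 were higher and 4 did not pass, and 14 were lower than in ZR-75-1 and 5 higher. Of the 18 without, 7 were lower than in MDA-MB-231, 4 were higher and 7 did not pass. Against ZR-75-1, 8 of these were lower, 8 were higher and 2 did not pass. Over all tested genes 28.5% were lower and 36.5% higher against MDA-MB-231, and 41.6% and 42.8% against ZR-75-1. The contrast between genes with and without an E2F form was not tested. GINS1 and GINS3, both with a match, lay on opposite sides of ZR-75-1.

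Other genes of the pathway, fixed as lists, were counted in the same way. Of 46 partner genes 42 were tested. Among these 16 were lower in B6TC cells than in MDA-MB-231, 15 were higher and 11 did not pass. Over all tested genes 28.5% were lower and 36.5% higher in that comparison. Against ZR-75-1, 24 were lower, 11 were higher and 7 did not pass, where 41.6% and 42.8% of all tested genes were lower and higher. CDC7, the kinase that activates the loaded helicase, was higher in B6TC than in either line, with 8.54 ± 0.028 on the B6TC arrays, 7.92 ± 0.057 on the MDA-MB-231 arrays and 7.67 ± 0.022 on the ZR-75-1 arrays (SD, n = 3 each). Its differences were 0.63 (limma adjusted p = 1.61e-06) and 0.87 (limma adjusted p = 2.00e-08). DBF4, its activator, was above MDA-MB-231 (0.30) and below ZR-75-1 (-0.72). TICRR, needed to load CDC45, was lower than in either line (-0.38 and -1.13), and RECQL4, a helicase of the initiation step, was below ZR-75-1 (-0.89). MCM9, an MCM paralog outside the ring, averaged 6.41 on the B6TC arrays, 5.74 on the MDA-MB-231 arrays and 6.83 on the ZR-75-1 arrays. It was called higher than in MDA-MB-231 (0.67), where its level was below the filter value of 6, and lower than in ZR-75-1 (-0.42).

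Among fork genes, POLD2, the second subunit of polymerase delta, was below MDA-MB-231 (-0.85) and below ZR-75-1 (-0.60). ASF1A, a histone chaperone, was above MDA-MB-231 (0.75) and below ZR-75-1 (-0.98), and POLD4, another delta subunit, was below ZR-75-1 (-1.13). TIMELESS, which protects the fork, had the second largest parental difference of its list, with MDA-MB-231 below ZR-75-1 (-1.33). In nucleotide supply TK1, thymidine kinase, was lower in B6TC than in either line (-0.59 and -0.72), as was NME1, a nucleoside diphosphate kinase (-0.50 and -0.75). SAMHD1, which breaks down deoxynucleotides, averaged 9.31 on the B6TC arrays, 8.91 on the MDA-MB-231 arrays and 6.70 on the ZR-75-1 arrays, with B6TC above ZR-75-1 by 2.62 (limma adjusted p = 3.91e-08), and RRM2B, the other small subunit of ribonucleotide reductase, was lower than in ZR-75-1 (-1.72).

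The E2F factors and pocket proteins, which switch replication genes on and off, were divided. Against MDA-MB-231, 6 of 14 were higher in B6TC, 4 were lower and 4 did not pass. Against ZR-75-1 6 were higher, 5 were lower and 3 did not pass. Over all tested genes 36.5% were higher and 28.5% lower against MDA-MB-231, and 42.8% and 41.6% against ZR-75-1. E2F2, an activating factor, averaged 5.86 ± 0.061 on the B6TC arrays, 6.35 ± 0.018 on the MDA-MB-231 arrays and 8.77 ± 0.10 on the ZR-75-1 arrays (SD, n = 3 each). It was below MDA-MB-231 (-0.50) and further below ZR-75-1 (-2.92, limma adjusted p = 2.19e-11), though its B6TC level was under the filter value of 6. E2F8, a repressing factor, was below ZR-75-1 by a similar amount (-2.66) but above MDA-MB-231 (0.33). E2F5, which acts with pocket proteins in repression, was higher than in both (0.65 and 1.72), and so was E2F3 (0.45 and 1.15). E2F1 was instead lower than in both (-0.42 and -0.54). E2F7 went the opposite way to E2F8 against ZR-75-1 (1.40, limma adjusted p = 8.9e-09). It did not pass against MDA-MB-231 (-0.14, limma adjusted p = 0.084). The pocket protein gene RBL2 was 0.91 above MDA-MB-231 but did not differ from ZR-75-1 past the threshold (-0.06, limma adjusted p = 0.282).

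Of 8 S phase cyclins, kinases and inhibitors, 4 were lower in B6TC cells than in MDA-MB-231, 2 were higher and 2 did not pass. Against ZR-75-1, 5 were lower, 2 were higher and 1 did not pass. The shares over all tested genes also apply to the proliferation markers below. They were 28.5% lower and 36.5% higher against MDA-MB-231, and 41.6% and 42.8% against ZR-75-1. CDKN1C, a CDK inhibitor, averaged 7.58 on the B6TC arrays, 6.88 on the MDA-MB-231 arrays and 4.55 on the ZR-75-1 arrays, higher in B6TC by 0.71 and 3.03. Its ZR-75-1 level was below the filter value of 6, so the size of the second difference is uncertain. CDK2 was lower in B6TC than in either line (-0.35 and -0.59). CDKN1B, another inhibitor, was 0.28 above MDA-MB-231 and below ZR-75-1 (-1.39). Of 8 proliferation markers that act mainly in mitosis, 5 were lower in B6TC cells than in MDA-MB-231, 1 was higher and 2 did not pass, whereas 5 were higher than in ZR-75-1, 1 was lower and 2 did not pass. PLK1, a mitotic kinase, was below MDA-MB-231 (-0.90) and differed from ZR-75-1 by -0.01 (limma adjusted p = 0.882), and BUB1 was 0.78 above ZR-75-1. BIRC5, which encodes survivin, was below MDA-MB-231 (-0.40) and TOP2A, a topoisomerase, was 0.47 above ZR-75-1. The proliferation markers and the replication genes thus had opposite balances against ZR-75-1, and that difference between the lists was not tested.

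**Figure D5:**
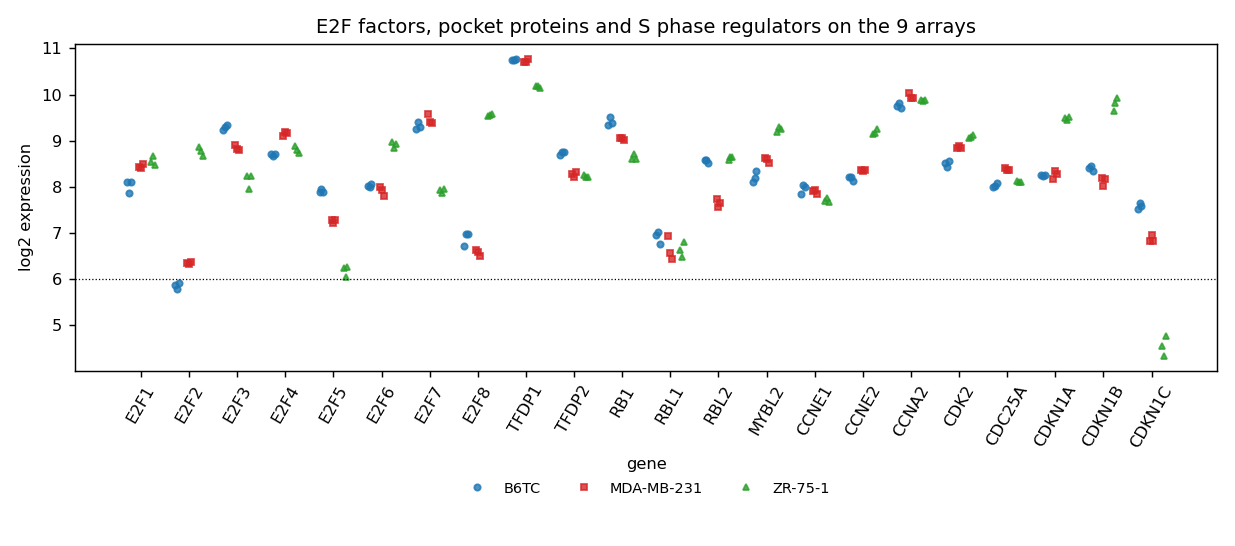
Log2 expression (vertical axis) of the 22 E2F, pocket protein and S phase regulator genes on each array, with B6TC as circles, MDA-MB-231 as squares, ZR-75-1 as triangles and a dotted line at the filter value of 6. E2F2 and E2F8 are highest in ZR-75-1, at 8.77 and 9.56, and CDKN1C is highest in B6TC, at 7.58.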

How the data were processed

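The authors deposited log2 expression values for 54675 probe sets on 9 arrays. The submitters' processing notes name Affymetrix Expression Console and RMA, with no versions, whereas the methods name GC-RMA, and the background correction and quantile step could not be repeated from the values. Single-array scan data were not used here, and depth is not defined for arrays, where the number of arrays limits the precision. Gene symbols were those of the platform annotation, updated by gene identifier.

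Control probe sets (62) were left out. The filter on low values asked for a log2 value of 6 or more on 3 or more arrays and kept 21095 probe sets of 10751 genes. The pairs of lines were compared with limma 3.58.1 in R 4.3.3 (1 mean per line, 6 residual and 3.68 prior degrees of freedom), with Benjamini-Hochberg adjustment over all tested probe sets. A gene was represented by its tested probe set with the highest mean. The procedure was tested on simulated data. Values on every array were given for the genes with the 4 largest positive and 4 largest negative called differences of each comparison, for genes whose probe sets were called in opposite directions and for PCNA. The values of MCM4, MCM6 and CDC45 were added after they were seen. A gene of another list was named where it was among the 2 largest called differences of its list in a comparison. E2F1, E2F3 and E2F7 were named outside this rule, after their values were seen. The 42 genes and all lists were chosen with earlier results of these data known. Replicate numbers showed no pairing of the arrays and were not used in the fit. The alternatives were other filters, robust fits, median centering, fits to the compared lines only, other choices of probe set, a replicate block, a fold minimum and leaving out each array.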

Additional observations from a re-analysis of the deposited data

How the results depend on the processing

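Counts against MDA-MB-231 or ZR-75-1 are those of B6TC. Shares and medians over all genes were not computed under the alternatives, apart from the shares at the 2-fold minimum. Of 126 gene results, 87 kept their call under all of the 19 alternatives computed gene by gene that kept the gene. Of these alternatives, 9 left out an array. Under at least 1 alternative, 17 results turned in sign with the test passed there or in the main fit. Turns where neither fit passed were not counted, and the turns named below follow the same rule. The lower calls of MCM2-7 against both parental lines held in the alternatives that kept the gene, apart from MCM3 against ZR-75-1 with no filter on low values. The 2-fold minimum, counted over the list only, left 0 of the 6 lower against MDA-MB-231 and 3 against ZR-75-1. A filter on level and variation, which drops probe sets that vary little, kept 34 of the 42 genes. It gave 3 genes higher and 23 lower against MDA-MB-231 with a median of -0.40. Against ZR-75-1 it gave 9 higher and 25 lower with a median of -0.54. In that setting a gene can be represented by another probe set, which turned ORC4 (-0.017), RFC5 (-0.94), FEN1 (-0.51), TYMS (-0.81) and RRM1 (-0.51) against MDA-MB-231, RFC5 (-0.42) and RRM1 (-0.25) against ZR-75-1, and ORC4 (0.92), RFC5 (0.51), TYMS (0.47) and RRM1 (0.26) between the parental lines. Median centering gave 8 genes higher and 26 lower against ZR-75-1, a higher share of 23.5% beside 35.9%, with a median of -0.47, and a median of -0.22 between the parental lines. It ended the higher calls of ORC3, ORC6, CDC6, GMNN, POLE2 and RRM1 against ZR-75-1.

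Without probe sets that may bind several transcripts, 30 genes were left. Then 3 were higher and 17 lower against MDA-MB-231, and the medians were -0.21 against MDA-MB-231 and -0.19 against ZR-75-1. Between the parental lines 11 were higher and 13 lower, and the median was 0.002. ORC4 turned against MDA-MB-231 (-0.017), MCM10 against ZR-75-1 (0.15), and ORC4 (0.92), MCM10 (0.045), GINS2 (0.062) and RFC2 (-0.17) between the parental lines. With the mean of all probe sets of a gene the medians were -0.22 against MDA-MB-231 and -0.095 between the parental lines. CDT1 (-0.24), RFC3 (-0.039), FEN1 (-0.20), TYMS (-0.32) and RRM1 (-0.12) turned against MDA-MB-231, RRM1 against ZR-75-1 (-0.016), and ORC4 (0.30), RFC5 (0.17), TYMS (0.078) and RRM1 (0.11) between the parental lines.

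With a 2-fold minimum 0 genes were higher and 0 lower against MDA-MB-231, 0 higher and 10 lower against ZR-75-1, and 1 higher and 5 lower in MDA-MB-231 than in ZR-75-1. Leaving out single arrays gave 8 to 11 higher and 20 to 21 lower against MDA-MB-231 (median -0.19 to -0.13), 12 to 14 and 25 to 26 against ZR-75-1 (-0.38 to -0.34), and 11 to 13 and 20 to 23 between the parental lines (-0.21 to -0.11). It ended calls of RPA2 and RRM2 against MDA-MB-231, of ORC3 and GMNN against ZR-75-1 and of ORC2, ORC6 and POLA1 between the parental lines.

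Same-numbered arrays did not deviate together (r of -0.102 to 0.176 over 9 pairs, across genes), so the numbers do not pair them. With a replicate block 8 genes were higher and 21 lower against MDA-MB-231, 14 and 25 against ZR-75-1, and 12 and 22 between the parental lines. The block ended the calls of RRM2 against MDA-MB-231 (0.11, limma adjusted p = 0.0682) and of POLA1 between the parental lines (0.13, limma adjusted p = 0.058) and added POLE2 there (0.13, limma adjusted p = 0.0436).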
